A study of Gallus gallus with 24 samples.

Results

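Adiponectin (ADIPOQ), its receptors ADIPOR1 and ADIPOR2, and 4 genes of secreted proteins that act on lipid, bile acid, mineral and growth pathways (ANGPTL4, FGF19, FGF23 and EREG) were followed in chicken liver across hatching. The members were the probe sets whose array annotation gives 1 of these 7 symbols as its sole gene, which found 8 of the 38439 probe sets tested and 7 of the 13009 named genes. ADIPOR2 had 2 probe sets, and each of the other members had 1. All birds were male Ross x Ross broiler (meat-type) chickens, sexed by the presence of testes, with 4 livers at each of 6 ages and 1 array for each liver. E16, E18 and E20 were embryos that lived on yolk. D1 were newly hatched chicks sampled unfed in the hatching incubator, and the labels and the methods give different holding times there. D3 and D9 were chicks kept in a heated brooder with free access to a commercial starter ration. No transgene or drug is given for any bird. By the methods, chicks that went to the brooder were first vaccinated against Marek's disease virus, so D1 differed from D3 in feeding, housing, vaccination and age together. Levels are log2 signals after RMA, a method that corrects background, equalizes the arrays and gives 1 value for each probe set. They can be compared between livers for 1 probe set but not between probe sets.

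Adiponectin is a plasma protein that mammals make mainly in fat cells, and in liver it acts through ADIPOR1 and ADIPOR2, membrane receptors of the PAQR family that are linked to AMP-activated kinase and PPARA signalling. ANGPTL4 is a secreted protein that inhibits lipoprotein lipase, and in mammals its gene is a target of the PPAR nuclear receptors. FGF19 and FGF23 are endocrine fibroblast growth factors, which circulate as hormones and need a klotho co-receptor beside an FGF receptor. In mammals FGF19 comes mainly from the ileum and represses bile acid synthesis in liver, while FGF23 comes mainly from bone and lowers phosphate and active vitamin D. EREG encodes epiregulin, a ligand of the EGF family that binds the receptors EGFR and ERBB4.

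The tissue label was checked first. Of 12 hepatocyte marker genes (albumin, fibrinogen chains, apolipoproteins and others), 11 were measured, their mean level lay between 13.91 and 14.18 on all 24 arrays, and 0 of the 11 differed between embryos and hatchlings by the limits given below on the probe set with the highest mean. On dimmer probe sets APOB was called on 4 of 7 and TF on 1 of 4, each higher in embryos. Array medians ranged from 5.43 to 5.55, and arrays of 1 age correlated at r = 0.984 to 0.993 across probe sets. A pair of arrays stood apart on genes that are no members. HINTW, a gene of the female-specific W chromosome, was at 12.17 on E18 replicate 2 against at most 6.05 elsewhere, although the bird is labelled male, and NPPA, a heart hormone gene, was at 8.11 on D9 replicate 1 against at most 5.23 elsewhere. Member calls that changed without both arrays are given, with the values they then took, beside the gene. In whole liver, fewer cells that carry a transcript and less of it in each cell cannot be told apart.

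**Figure D1:**
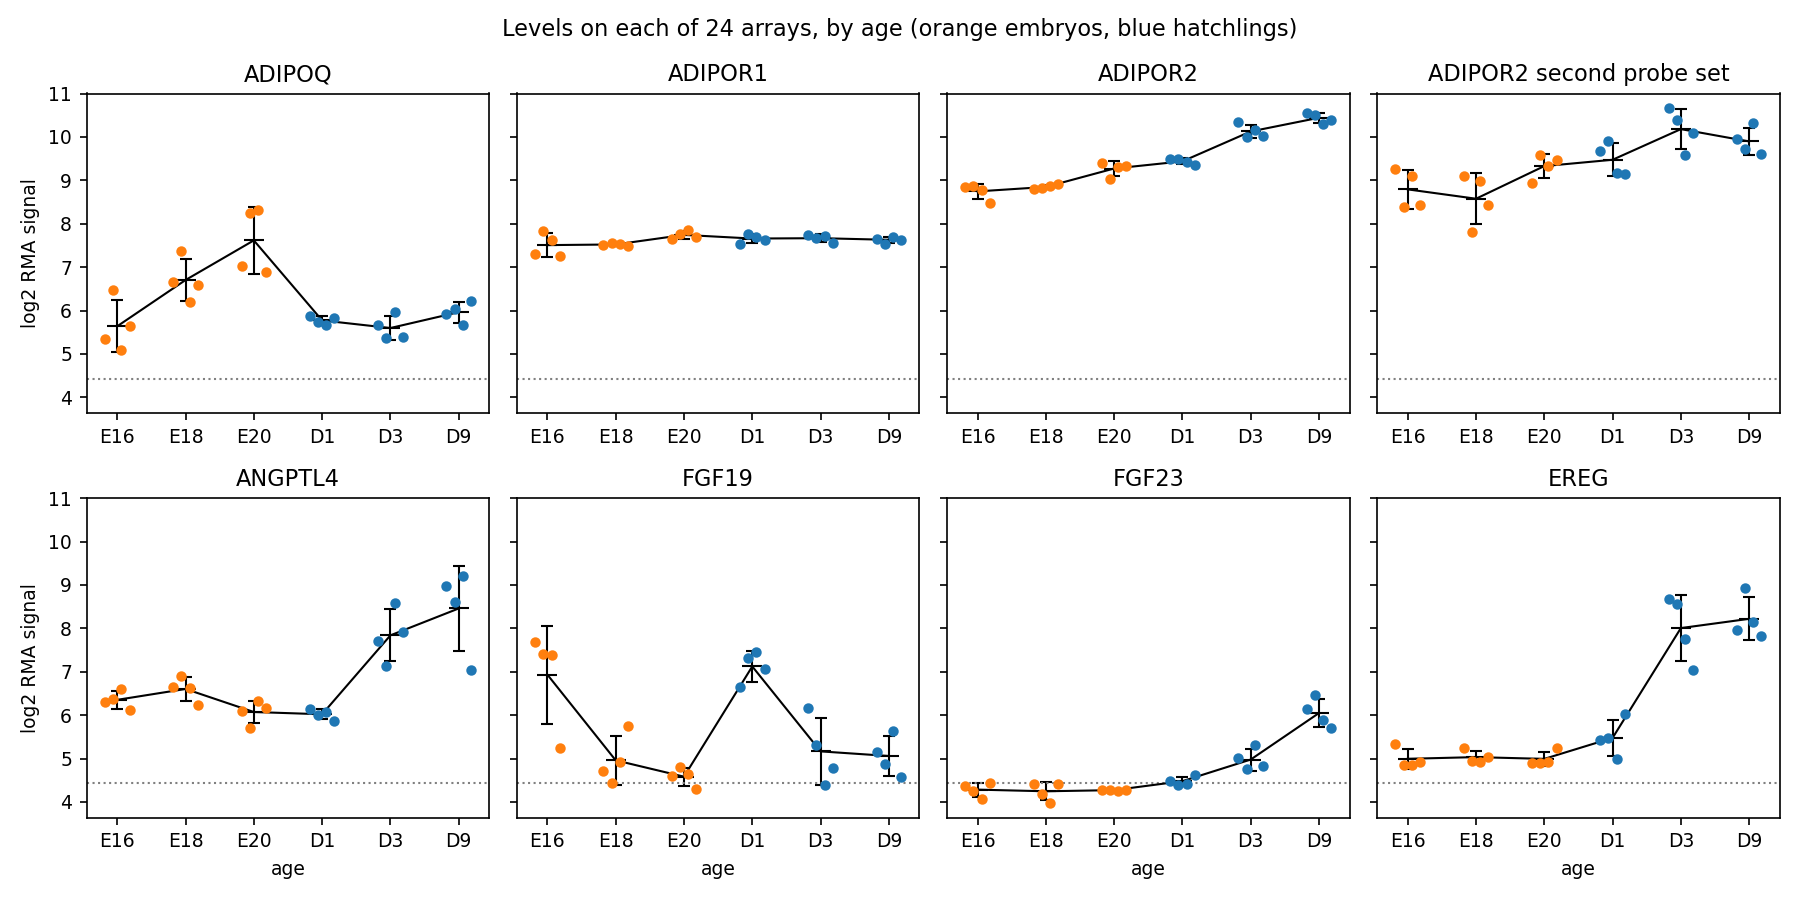
Log2 RMA signal (vertical axis) of the 8 member probe sets by age (horizontal axis); points are single livers (orange embryos, blue hatchlings), black marks and bars are the mean and SD of 4 livers, and the dotted line is the 4.43 below which 25% of probe set means lie. ADIPOQ is highest at E20, FGF19 is high at E16 and D1, ANGPTL4 and EREG are high in fed chicks, and FGF23 is highest at D9.

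Across the 6 ages, 6 of the 7 genes varied beyond the spread between livers (limma F test, adjusted p of 0.05 or less), against 33.4% of all probe sets. ADIPOR1 was the exception (adjusted p = 0.28). In the contrast of all embryos with all hatchlings (E vs. H), a probe set was called at an adjusted p of 0.05 or less together with an absolute log2 ratio of 0.75 or more. By these limits 5 of the 7 genes were called, against 6% of all probe sets. The members were chosen with earlier results of these data known. The study had already named ADIPOQ, ADIPOR2, FGF23 and EREG in this contrast, so these counts describe the members and are not a test. ADIPOQ was higher in embryos, and ADIPOR2, ANGPTL4, FGF23 and EREG were higher in hatchlings. The same count of 5 was reached without E18 replicate 2 and D9 replicate 1. The sign of the 5 called ratios was the same within each of the 4 hybridization days. The days were taken from the replicate numbers, and 1 liver of every age was hybridized on each. FGF19, which was not called, also kept its sign on all 4 days, and ADIPOR1 did on 3. The days split the same arrays, so this is not separate support and does not set the called genes apart.

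The order of the ages differed from gene to gene, and so did the pairs of ages that were called. Between neighbouring ages, 1 member was called in E16 vs. E18 (0.851% of all probe sets), which was FGF19, and 0 in E18 vs. E20 (2.64%). ADIPOQ and FGF19 were the 2 called in E20 vs. D1 (3.53%), the contrast that spans hatching. From unfed D1 to fed D3 the 3 called were ANGPTL4, FGF19 and EREG (2.86%), and from D3 to D9 the 1 called was FGF23 (1.6%). Among more distant embryo ages, 2 were called in E16 vs. E20 (3.79%). E16 vs. D1 had 0 (4.86%) and E18 vs. D1 had 2 (6.76%). Fed D3 chicks differed in 4 members from E16 (8.17%), in 4 from E18 (10.6%) and in 4 from E20 (8.17%). Fed D9 chicks differed in 5 from E16 (8.3%), in 4 from E18 (8.61%), in 5 from E20 (7.03%) and in 5 from D1 (4.71%). These contrasts share livers and are given side by side, not as separate support.

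**Figure D2:**
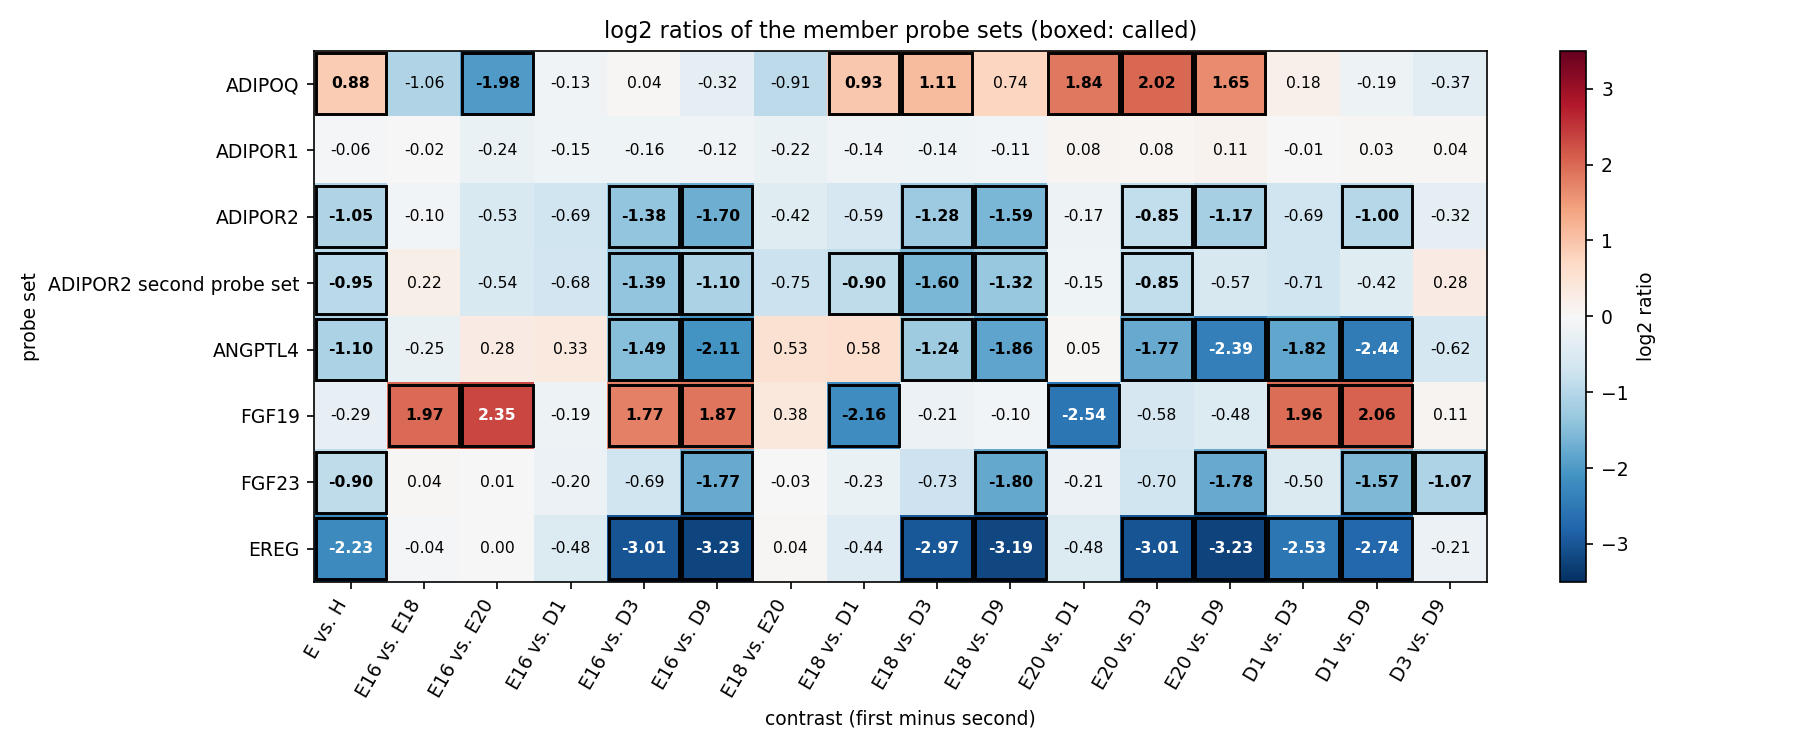
Log2 ratios (colour and printed value, first age minus second) of the 8 member probe sets (rows) in E vs. H and the 15 pairs of ages (columns); boxed bold values were called. EREG reaches the most negative ratio, and its ratios run from -3.23 to -2.53 in the 8 contrasts of D3 or D9 with E16, E18, E20 or D1. ADIPOR1 has no boxed value.

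ADIPOQ rose through late embryonic life and was low in all hatchlings. In order of replicate number it was at 5.34, 6.47, 5.10 and 5.64 in E16, at 6.67, 7.37, 6.19 and 6.59 in E18, and at 7.02, 8.25, 8.31 and 6.90 in E20. Hatchlings were at 5.88, 5.73, 5.66 and 5.82 in D1, at 5.66, 5.36, 5.98 and 5.40 in D3, and at 5.92, 6.04, 5.66 and 6.23 in D9. All 4 E20 livers lay above every E16 and hatchling liver, while E18 overlapped E16, E20 and D9. E20 livers spread more widely (SD 0.76, n = 4) than D1 livers (SD 0.10, n = 4), with replicates 2 and 3 more than 1 log2 unit above replicates 1 and 4.

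The E vs. H ratio of ADIPOQ was 0.88 ± 0.18 (SE), or 1.83-fold higher in embryos (limma, adjusted p = 0.00042). E20 exceeded E16 by 3.94-fold (log2 ratio -1.98 for E16 vs. E20, adjusted p = 0.00012), D1 by 3.59-fold (1.84, adjusted p = 0.00029), D3 by 4.05-fold (2.02, adjusted p = 3.2e-05) and D9 by 3.15-fold (1.65, adjusted p = 0.00039). E18 was called above D1 (0.93, adjusted p = 0.037) and D3 (1.11, adjusted p = 0.0087). Without E18 replicate 2, which has the highest E18 level and carries the HINTW signal, the ratio to D1 was 0.71 (adjusted p = 0.14) and no longer called. Without both arrays that stood apart it was also 0.71 (adjusted p = 0.16), and E18 vs. E20 gave -1.14 (adjusted p = 0.040) and was called. Neighbours in the order E20, E18, D9, D1, E16, D3 did not pass the limits: E18 vs. E20 gave -0.91 (adjusted p = 0.077) and E18 vs. D9 gave 0.74 (adjusted p = 0.092). The 4 lowest ages lay within 0.37 of each other, with a 95% interval of -0.96 to 0.31 for E16 vs. D9. Within the 4 hybridization days the embryo minus hatchling difference was 0.52, 1.65, 0.77 and 0.56.

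Because fat cells are the main source of ADIPOQ in mammals, adipocyte markers were read on the same arrays. Of 10 markers 9 were measured, and their mean was 6.95 to 7.27 in E20 and 7.04 to 7.28 in D1, so the ages overlapped. In E vs. H (6% of all probe sets) 1 of the 9 was called higher in embryos, LPL (1.30). Higher in hatchlings were 2, CIDEC (-0.94) and PPARG (-0.92, on 1 of its 3 probe sets). In D1 vs. D3 (2.86%) 1 was called higher at D1 and 1 at D3. In E20 vs. D1 (3.53% of all probe sets) and in E16 vs. E18 (0.851%) 0 of the 9 were called. From E18 to E20, when ADIPOQ was rising, the group mean of the markers went from 6.93 to 7.11. In that step 1 was called (2.64% of all probe sets), LPL, which was higher at E20 (log2 ratio -0.89, adjusted p = 0.012). The adipocyte fatty acid binding gene FABP4 averaged 6.01 in E20 against 5.41 to 5.67 at the other ages, and RBP7 averaged 4.31, below the 4.43 of percentile 25. In E20 the marker mean was 7.23 and 7.27 on replicates 2 and 3, which had the highest ADIPOQ, against 7.01 and 6.95 on replicates 1 and 4. Of the 9 markers, 5 were higher on both of those arrays than on the other pair, and 4 (FABP4, CIDEA, GPD1 and RBP7) were not. CFD, the adipsin gene, was at 11.03 and 11.57 on replicates 2 and 3 against 10.20 and 10.10, while FABP4 was at 6.35 and 5.80 against 5.69 and 6.18. Over 24 arrays the marker mean correlated with ADIPOQ at r = 0.23, and deviations from the age means correlated at 0.46. The part of fat cell RNA in the ADIPOQ levels was not tested. Several of the markers, among them LPL, CIDEC and CFD, are also expressed in liver or other tissues.

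**Figure D3:**
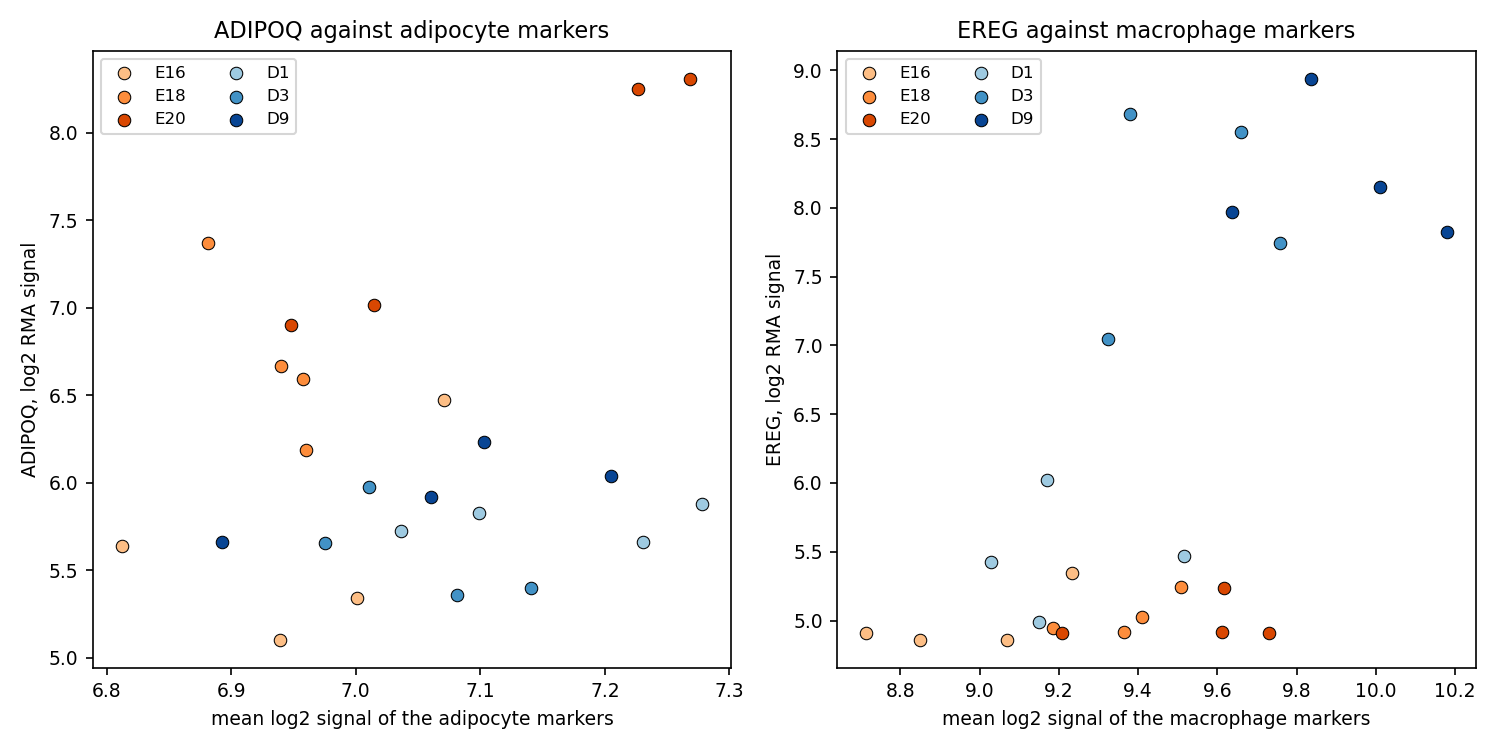
ADIPOQ log2 signal against the mean log2 signal of 9 adipocyte markers (left) and EREG log2 signal against the mean of 10 macrophage markers (right); each point is 1 of 24 livers, coloured by age. D1 livers reach the highest adipocyte marker means (up to 7.28) with ADIPOQ below 5.9, and E20 livers reach macrophage marker means of up to 9.73 with EREG at most 5.24.

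Of the receptors, ADIPOR2 was called in E vs. H and ADIPOR1 was not, and the difference between them was not tested. ADIPOR1 stayed between 7.26 and 7.86 on all 24 arrays, its age means spanned 0.24, and 0 of 15 pairs of ages were called. Its E vs. H ratio was -0.06 with a 95% interval of -0.18 to 0.05. The lowest unadjusted p of a pair was 0.022 (E16 vs. E20, adjusted p = 0.15).

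ADIPOR2 rose in steps from embryo to fed chick. On the probe set with the higher mean the embryos were at 8.85, 8.87, 8.78 and 8.48 (E16), at 8.80, 8.82, 8.87 and 8.91 (E18), and at 9.41, 9.02, 9.32 and 9.34 (E20). The hatchlings were at 9.50, 9.48, 9.42 and 9.35 (D1), at 10.34, 9.99, 10.15 and 10.02 (D3), and at 10.56, 10.52, 10.30 and 10.39 (D9). All fed chicks lay above all unfed chicks and embryos, and E16 and E18 lay below every E20 and D1 liver. Hatchlings exceeded embryos by 2.07-fold (E vs. H -1.05 ± 0.06 SE, adjusted p = 1.7e-12), and D9 exceeded E16 by 3.24-fold (-1.70, adjusted p = 1.1e-11). D1 vs. D3 was -0.69 (adjusted p = 5.3e-05), which passed the limit on p but not the limit of 0.75. Neither E20 vs. D1 (-0.17, adjusted p = 0.37) nor D3 vs. D9 (-0.32, adjusted p = 0.075) passed the limit on p.

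The second ADIPOR2 probe set gave the same direction in E vs. H with more spread (-0.95 ± 0.16 SE, adjusted p = 5.6e-05). It was at 9.26, 8.38, 9.09 and 8.44 in E16 and 9.10, 7.81, 8.98 and 8.43 in E18, then at 8.94, 9.58, 9.33 and 9.48 in E20. After hatching it was at 9.67, 9.91, 9.18 and 9.14 in D1, at 10.67, 10.40, 9.58 and 10.09 in D3, and at 9.96, 9.72, 10.31 and 9.60 in D9. Here D3, not D9, had the highest mean, and both fed ages overlapped D1. The probe sets correlated at r = 0.77 over 24 arrays, which share the ages, and at 0.08 once age means were removed. E18 vs. D1 was called on the second probe set (-0.90, adjusted p = 0.026) but not on the first (-0.59, adjusted p = 0.00011). The call on the second was lost without both arrays that stood apart (-0.64, adjusted p = 0.13). The 2 probe sets also disagreed on D1 vs. D9 (a 2.01-fold rise, adjusted p = 1.5e-07, against a ratio of -0.42, adjusted p = 0.46). In E20 vs. D9 the first was called (-1.17, adjusted p = 7.0e-09) and the second was not (-0.57, adjusted p = 0.20).

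Genes linked to adiponectin signalling were read from a list of 17, of which 16 were measured. Whether they respond to ADIPOQ in these livers was not tested. E vs. H called 4 higher in embryos and 0 in hatchlings, against 6% of all probe sets. The other 12 were not called, and the median E vs. H ratio was 0.25 against 0.0024 over all named genes. The 4 were CPT1A (2.03, adjusted p = 5.6e-10), which carries fatty acids into mitochondria, the coactivator PPARGC1A (1.88, adjusted p = 1.0e-10), the deacetylase SIRT1 (1.16, adjusted p = 3.8e-08) and PPARA (0.91, adjusted p = 3.4e-07). SIRT1 was called on 1 of its 3 probe sets. CPT1A, like ADIPOQ, had its highest age mean at E20 (10.43, against 8.31 at E18 and 8.98 at D1). PPARA went the other way from E18 to E20, from 10.21 to 8.88 (1.32, adjusted p = 5.7e-05). In E18 vs. E20 these were the only genes of the list called, 1 in each direction (2.64% of all probe sets). None of the measured AMP-activated kinase subunits nor the adaptors APPL1 and APPL2 were called in E vs. H, and the non-signalling adiponectin binder CDH13 had a ratio of -0.0020 (adjusted p = 0.98). The subunit PRKAG2 passed the limit on p but not the limit on the ratio (0.66, adjusted p = 1.3e-05). It fell from 10.47 at E16 to 9.11 at D1, and E16 was called above E20 (1.08), D1 (1.36), D3 (1.14) and D9 (1.26). The other subunits, APPL1 and APPL2 had no called pair of ages. CAMKK2, also on the list, was called in E16 vs. D1 (0.78) and E16 vs. D3 (0.93). In the rest of the PAQR receptor family 1 of 6 measured genes was called in E vs. H (6% of all probe sets). The membrane progestin receptor PAQR7 was higher in hatchlings (-2.27, adjusted p = 2.9e-10) and rose from 6.41 at E20 to 8.63 at D1. Of 7 measured C1q/TNF-related genes, paralogs of ADIPOQ, 1 was called in E vs. H (6% of all probe sets), C1QTNF7 (0.79, adjusted p = 6.5e-06). Only 5 of the 7 had means above percentile 25, and C1QTNF3 (3.71) and C1QTNF8 (3.83) did not.

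ANGPTL4 was low until hatching and in unfed chicks and high in fed chicks. The embryos were at 6.31, 6.38, 6.61 and 6.11 (E16), 6.65, 6.90, 6.62 and 6.24 (E18), and 6.09, 5.71, 6.32 and 6.16 (E20). The chicks were at 6.13, 5.99, 6.08 and 5.88 (D1), 7.72, 7.13, 8.59 and 7.92 (D3), and 8.98, 8.61, 9.21 and 7.03 (D9). All 8 fed chicks lay above all 16 other livers, although D9 replicate 4, at 7.03, came close to the highest embryo at 6.90. D3 exceeded D1 by 3.53-fold (log2 ratio -1.82, adjusted p = 0.00082) and D9 exceeded D1 by 5.42-fold (-2.44, adjusted p = 1.5e-05). Embryos of E20 and unfed D1 chicks differed by 0.05 (95% interval -0.63 to 0.73). No pair among E16, E18, E20 and D1 was called, nor was D3 vs. D9 (-0.62, adjusted p = 0.43), which was called without D9 replicate 4. The E vs. H ratio was -1.10 ± 0.19 (SE, adjusted p = 7.3e-05), and within hybridization days it was -1.26, -0.91, -1.44 and -0.77.

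The lipases that ANGPTL proteins inhibit moved in both directions. Of 12 measured genes of the ANGPTL family and lipase control, 2 were called higher in embryos and 1 in hatchlings. The share of all probe sets called in E vs. H was 6%. The other 9 genes were not called, and the median ratio was -0.07. Hepatic lipase LIPC (2.12, adjusted p = 9.7e-14) and lipoprotein lipase LPL (1.30, adjusted p = 2.7e-08) were higher in embryos. From D1 to D3, when ANGPTL4 rose, LIPC fell from 11.56 to 9.77 (log2 ratio 1.78, adjusted p = 1.5e-07) and LPL from 9.96 to 8.32 (1.64, adjusted p = 2.4e-05). LPL fell further to 7.23 at D9. Endothelial lipase LIPG (-1.70, adjusted p = 5.5e-11) rose beside ANGPTL4, from 4.56 at D1 to 7.08 at D3 (-2.52, adjusted p = 4.9e-09). The measured relatives ANGPTL1, ANGPTL2, ANGPTL5 and ANGPTL6 were not called.

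PPAR receptors, hypoxia regulators and genes they are known to control did not all follow ANGPTL4. Of 13 measured, 3 were called higher in embryos and 2 in hatchlings in E vs. H (6% of all probe sets). The other 8 were not called, and the median ratio was 0.20. PDK4, which restrains pyruvate oxidation, fell from 12.97 at E20 to 11.10 at D1 and 7.94 at D3 (E vs. H 3.95, adjusted p = 2.3e-16), and CPT1A and PPARA were the others that were higher in embryos. The lipid droplet gene PLIN2 rose from 9.84 at D1 to 13.11 at D3 (E vs. H -2.12, adjusted p = 5.7e-15), and PPARG rose from 4.38 to 5.25 (-0.92, adjusted p = 5.3e-08). PPARG was called on 1 of 3 probe sets and lay below the 4.43 of percentile 25 at every age up to D1. The receptor PPARD was not called in E vs. H (-0.51) but went from 6.04 at D1 to 6.95 at D3 (-0.92, adjusted p = 1.5e-05). In D1 vs. D3 3 of the 13 were called higher at D1 and 3 at D3 (2.86% of all probe sets).

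**Figure D4:**
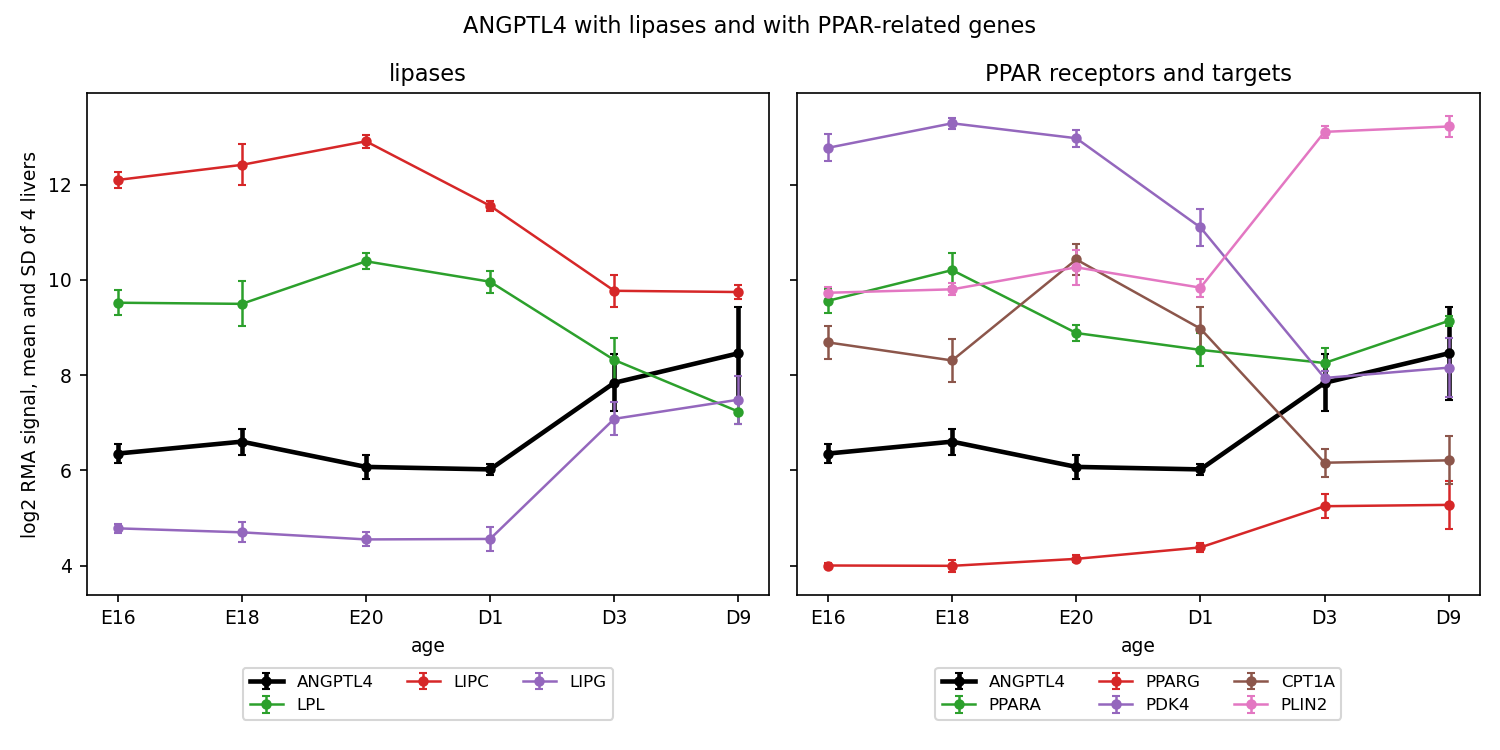
Mean log2 RMA signal (vertical axis, bars SD, n = 4 livers) by age (horizontal axis) for ANGPTL4 (black) with 3 lipase genes (left) and with 5 genes of PPAR receptors and their targets (right). Between D1 and D3 the lines of ANGPTL4, LIPG and PLIN2 go up while those of LPL, LIPC, PDK4 and CPT1A go down; heights of different genes are not comparable.

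FGF19 was high at 2 separate ages and low at the other 4. The high ages were E16, at 7.68, 7.42, 7.38 and 5.25, and unfed D1, at 6.65, 7.31, 7.46 and 7.07. E18 livers were at 4.72, 4.44, 4.92 and 5.75, E20 livers at 4.59, 4.80, 4.64 and 4.30, D3 livers at 6.17, 5.31, 4.40 and 4.78, and D9 livers at 5.16, 4.87, 5.63 and 4.58. Every D1 liver lay above every E18, E20, D3 and D9 liver. At E16 this held for 3 livers, while replicate 4 fell within the low range. Means of the low ages ran from 4.58 to 5.17, not far above percentile 25 of all probe sets.

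D1 exceeded E20 by 5.82-fold (log2 ratio -2.54 ± 0.42 SE for E20 vs. D1, adjusted p = 0.00029), D3 by 3.88-fold (1.96, adjusted p = 0.0045) and D9 by 4.18-fold (2.06, adjusted p = 0.0017). E16 exceeded E18 by 3.93-fold (1.97, adjusted p = 0.014) and E20 by 5.10-fold (2.35, adjusted p = 0.00057). The E16 vs. E18 call rested on few livers: without E16 replicate 1 the ratio was 1.72 (adjusted p = 0.052), without E16 replicate 2 it was 1.81 (adjusted p = 0.053) and without E18 replicate 1 it was 1.89 (adjusted p = 0.052). Without both arrays that stood apart it was 1.80 (adjusted p = 0.062), and without E16 replicate 4 it was 2.53 (adjusted p = 0.00091). E16 and D1 differed by 0.19 (95% interval of E16 vs. D1 -1.06 to 0.68), and no pair among E18, E20, D3 and D9 was called. Since each side of hatching held 1 high age, E vs. H gave -0.29 (95% interval -0.80 to 0.21, adjusted p = 0.40).

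The mammalian partners of FGF19 in liver were measured beside it. Of 8 FGF receptor and co-receptor genes, 2 were called higher in embryos and 1 in hatchlings, against 6% of all probe sets. The other 5 were not called. The co-receptor KLB, beta-klotho, was higher in embryos by 0.75 (adjusted p = 1.9e-06) and fell from 9.74 at E20 to 8.10 at D9 (1.65, adjusted p = 2.0e-07). FGFR4, the receptor that pairs with KLB in mammalian liver, had a ratio of -0.23 (adjusted p = 0.20) and no called pair of neighbouring ages. FGFR2 was higher in embryos (1.07, adjusted p = 4.2e-07) and FGFR3 in hatchlings (-0.93, adjusted p = 1.8e-05), each called on 3 of its probe sets, which numbered 5 and 4.

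Several bile acid genes rose at hatching, the step in which FGF19 rose. Of 11 measured, E vs. H called 5 higher in hatchlings and 1 in embryos, against 6% of all probe sets. The other 5 were not called, and the median ratio was -0.66 against 0.0024 over all named genes. CYP7A1, the rate-limiting enzyme of bile acid synthesis, averaged 4.24, 4.19 and 4.87 in E16, E18 and E20 and 8.73, 9.85 and 8.92 in D1, D3 and D9 (E vs. H -4.73, adjusted p = 3.4e-10). Its E16 and E18 means lay below percentile 25 of all probe sets, so the array background limits the size of this ratio. The bile acid exporter subunits SLC51A (-4.16, adjusted p = 2.5e-14) and SLC51B (-3.48, adjusted p = 1.0e-12) and the canalicular pump ABCB11 (-0.92, adjusted p = 3.9e-06) rose as well. CYP8B1, the sterol 12-alpha-hydroxylase, peaked at D1 (13.57) and was at 11.63 in D9 (D1 vs. D9 1.93, adjusted p = 0.00050). The nuclear receptor NR0B2 fell from 9.57 at E18 to 8.61 at E20 and rose to 9.61 at D1 (E20 vs. D1, adjusted p = 0.0080). The bile acid receptor NR1H4 fell from 10.08 at E20 to 8.98 at D1 (1.10, adjusted p = 0.0018) on its probe set with the higher mean. In E vs. H NR1H4 was called on 1 of its 2 probe sets (1.54 against 0.21). In E20 vs. D1, 6 of the 11 were called as rising and 1 as falling, against 3.53% of all probe sets. In D1 vs. D3, when FGF19 fell, 1 was called (2.86% of all probe sets). This was CYP7B1, another enzyme of bile acid synthesis, which was lower at D3 (1.04, adjusted p = 0.023).

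**Figure D5:**
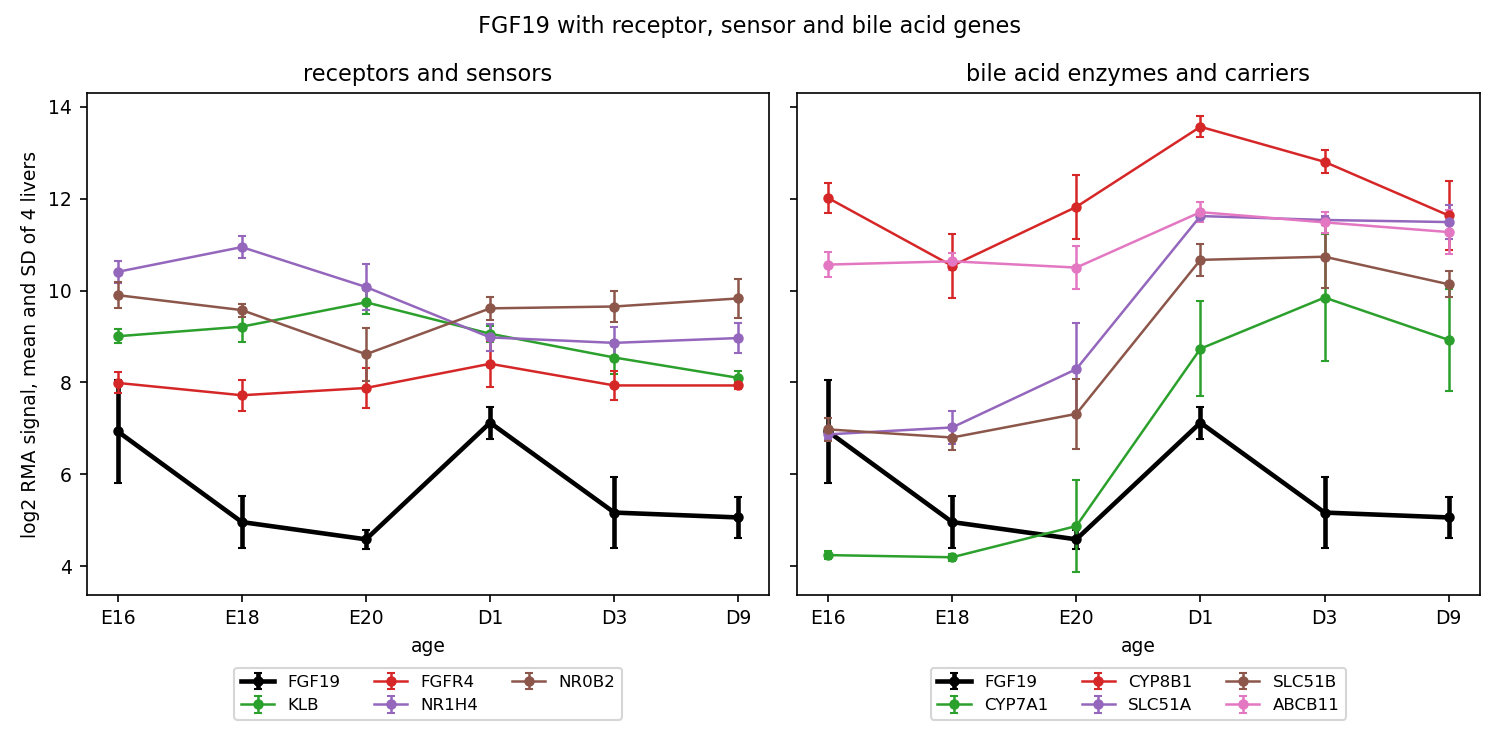
Mean log2 RMA signal (vertical axis, bars SD, n = 4 livers) by age (horizontal axis) for FGF19 (black) with receptor and nuclear receptor genes (left) and with bile acid enzymes and carriers (right). FGF19 and the carriers go up together between E20 and D1, and FGF19 returns to 5.17 at D3 while SLC51A remains at 11.54; heights of different genes are not comparable.

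Gut epithelium is the main source of FGF19 in mammals, and its markers were read on the same arrays. Of 8 markers 7 were measured, and their mean was 5.28 to 5.73 on all arrays. In E vs. H, E20 vs. D1 and D1 vs. D3 0 were called (6%, 3.53% and 2.86% of all probe sets). FABP2, a defining enterocyte gene, was below percentile 25 at every age. CDX2 averaged 7.75 and FABP6 6.42 on the probe sets shown. Their other probe sets were dimmer, at 4.54 and 4.01 for CDX2 and at 5.07, 4.54 and 4.00 for FABP6. The marker means of the D1 arrays (5.28 to 5.54) overlapped those of the E20 arrays (5.40 to 5.49). Over 24 arrays FGF19 correlated with the marker mean at r = -0.05, and with age means removed at -0.08. Single markers ran from r = -0.33 (CDX1) to 0.46 (LCT). The part of gut RNA in the FGF19 levels was not tested.

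FGF23 rose late. Embryos were at 4.38, 4.26, 4.07 and 4.43 (E16), 4.42, 4.19, 3.97 and 4.41 (E18), and 4.28, 4.28, 4.26 and 4.27 (E20), which is around or below percentile 25 of all probe sets. Chicks were at 4.48, 4.40, 4.42 and 4.61 (D1), 5.02, 4.75, 5.32 and 4.82 (D3), and 6.14, 6.47, 5.88 and 5.71 (D9). The ranges of D1, D3 and D9 did not overlap, with D9 highest, whereas D1 overlapped the embryos. D9 exceeded D3 by 2.10-fold (log2 ratio -1.07 ± 0.14 SE, adjusted p = 4.3e-05) and D1 by 2.97-fold (-1.57, adjusted p = 4.2e-08). D1 vs. D3 (-0.50, adjusted p = 0.031) passed the limit on p but not the limit of 0.75. The E vs. H ratio was -0.90 (adjusted p = 7.7e-09). The array background in embryos limits the size of ratios to them.

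Genes of the FGF23 mineral axis were called about as often as probe sets at large. Of 12 measured, 1 was called in E vs. H (6% of all probe sets), the phosphate carrier SLC20A2 (0.77, adjusted p = 9.5e-09), on 1 of its 2 probe sets, and the median ratio was 0.02. In the step in which FGF23 rose, D3 vs. D9 (1.6% of all probe sets), 1 was called, again SLC20A2 (-0.77, adjusted p = 0.00035). CYP24A1, the vitamin D catabolic enzyme, averaged between 3.71 and 3.84 at all ages, and the co-receptor KL, klotho, had an E vs. H ratio of 0.01 (adjusted p = 0.90). Bone cell markers averaged 5.56 to 5.92 on all arrays, and 0 of 7 were called in E vs. H. In D9, where FGF23 was highest, their mean was 5.70 to 5.75, within the range of the E16 and E18 arrays.

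EREG showed the widest range of the members, with age means 3.23 apart. Embryos were at 5.34, 4.86, 4.86 and 4.91 (E16), 5.24, 4.95, 4.92 and 5.03 (E18), and 4.91, 4.91, 4.92 and 5.24 (E20). Unfed D1 chicks were at 5.42, 5.47, 4.99 and 6.02. Fed chicks were at 8.68, 8.55, 7.74 and 7.05 (D3) and at 7.97, 8.94, 8.15 and 7.82 (D9), at least 1 log2 unit above every other liver. D3 exceeded D1 by 5.78-fold (log2 ratio -2.53 ± 0.28 SE, adjusted p = 1.9e-06) and E20 by 8.08-fold (-3.01, adjusted p = 3.3e-08), and D9 exceeded E20 by 9.37-fold (-3.23, adjusted p = 1.4e-08). D3 and D9 did not pass the limits (-0.21, 95% interval -0.79 to 0.37), and neither did any pair of E16, E18, E20 and D1. The E vs. H ratio was -2.23 ± 0.16 (SE, adjusted p = 3.0e-10), and within hybridization days it was -2.19, -2.75, -2.06 and -1.90.

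Receptors, ligands and feedback genes of the ErbB system were read beside EREG. Of 22 measured, 0 were called in E vs. H (6% of all probe sets) or in D1 vs. D3 (2.86%), counts near those shares, with a median E vs. H ratio of 0.03, and in E18 vs. E20 1 was called, the immediate early gene EGR1 (-1.25, adjusted p = 0.021). EGFR had an E vs. H ratio of 0.39 (adjusted p = 0.014), fell from 9.73 at D1 to 8.63 at D9 (1.10, adjusted p = 0.00065), and was called in E vs. H on 1 of its 4 probe sets. ERBB4, the other receptor of epiregulin, averaged 3.61 to 3.78, below percentile 25, where a change could be missed. In the GRCg7b assembly EREG lies between EPGN and AREG, which encode the EGFR ligands epigen and amphiregulin. EPGN correlated with EREG at r = -0.21 over the 24 arrays and had an E vs. H ratio of 0.08 (adjusted p = 0.12). AREG correlated with it at r = 0.75, but its age means stayed between 3.52 and 4.13, below percentile 25, and its E vs. H ratio was -0.31 (adjusted p = 0.014).

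Macrophages also make epiregulin in mammals, and macrophage markers were read beside it. All 10 were measured, and their array means were 8.71 to 9.23 in E16, 9.18 to 9.51 in E18, 9.21 to 9.73 in E20, 9.03 to 9.52 in D1, 9.32 to 9.76 in D3 and 9.64 to 10.18 in D9. In E vs. H 1 of the 10 was called (6% of all probe sets), CD74 (-0.94), the invariant chain that associates with MHC class II. CD74 was also the 1 called in D1 vs. D3 (2.86% of all probe sets), with a ratio of -1.18 (adjusted p = 0.00020). From D1 to D3, the step in which EREG rose, the group mean of the markers went from 9.22 to 9.53, with overlapping ranges. E20 and D3 livers overlapped in macrophage markers and not in EREG. Over 24 arrays EREG correlated with the marker mean at r = 0.61, and with age means removed at 0.13. The part of macrophage RNA in the EREG levels was not tested.

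For each member, the 3 named genes with the highest Pearson r over the 24 arrays were taken from 11769 candidates, as a description of pattern only, since the arrays share the ages. EREG was most like ACSBG2 (r = 0.97), an acyl-CoA synthetase, LSS (0.97), which makes lanosterol, and PANK3 (0.97), which starts coenzyme A synthesis. ACSBG2 averaged 7.66 at D1 and 12.05 at D3. ADIPOR2 was most like ERG28 (0.97), UGP2 (0.97) and the fatty acid elongase ELOVL6 (0.96), which went from 9.56 at D1 to 12.57 at D3. ANGPTL4 was most like the squalene synthase FDFT1 (0.91), TRAF7 (0.90) and the fatty acid desaturase FADS1 (0.90). LSS, ERG28 and FDFT1 act in or with sterol synthesis.

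FGF19 was most like UQCRQ (0.85), UQCRC1 (0.82) and NDUFAB1 (0.80), which encode parts of mitochondrial respiratory complexes. Their changes were far smaller: UQCRQ averaged 13.02 at E16, 12.65 at E20, 12.98 at D1 and 12.68 at D3. ADIPOQ was most like RHOBTB3 (0.86), WBP1L (0.86) and the cytokine gene CNTF (0.83), of which WBP1L went from 10.61 at E16 to 11.69 at E20 and 10.99 at D1. FGF23 was most like LAPTM4B (0.95), C21orf62 (0.95) and RPS6KA1 (0.94), and LAPTM4B averaged 4.83 at D1, 6.11 at D3 and 8.28 at D9. ADIPOR1, with little variation to follow, reached lower values, with PLEKHJ1 (0.73), ORM1 (0.73) and NAPA (0.67). Between members, EREG correlated with ADIPOR2 at r = 0.91, with FGF23 at 0.86 and with ANGPTL4 at 0.82. These fell to 0.22, 0.39 and -0.10 once age means were removed.

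Other genes of liver-secreted proteins were read from a list of 29. Of the 21 measured, 5 were called higher in embryos and 2 in hatchlings in E vs. H, against 6% of all probe sets. The other 14 were not called, and the median ratio was -0.0029. Among the 14, SERPINF1 was at 0.749 on its shown probe set, just under the limit of 0.75. Its dimmer probe sets gave 0.88 and 1.11 and were called. The IGF binding protein IGFBP2 (2.02, adjusted p = 2.7e-11), LECT2 (2.00, adjusted p = 8.6e-05), IGFBP1 (1.13, adjusted p = 4.1e-06), HGF (0.81, adjusted p = 0.00055) and GDF2 (0.78, adjusted p = 3.4e-06) were higher in embryos. Markers of other liver cells were also higher in embryos in part: of 10 stellate and fibroblast markers 3 were called higher in embryos (COL1A1, COL1A2 and LUM), the median ratio was 0.41, and array means were 8.89 to 9.36 in embryos against 8.46 to 8.85 in hatchlings. Of 8 endothelial markers ERG was called higher in embryos and LYVE1 in hatchlings, with a median ratio of 0.44. Their part in the levels of HGF, GDF2 and the other listed genes was not tested. IGFBP2 averaged 10.27 at D1 and 7.53 at D3. Higher in hatchlings were DPP4 (-2.24, adjusted p = 1.1e-10), a peptidase that cleaves peptide hormones, on 1 of its 3 probe sets, and the antimicrobial peptide gene LEAP2 (-1.54, adjusted p = 6.3e-10). IGF1 rose late, from 4.22 at D3 to 6.12 at D9 (-1.91, adjusted p = 2.3e-07), the step in which FGF23 was the member called. Follistatin, FST, which binds activins, rose from 7.40 at E18 to 9.65 at E20 (-2.25, adjusted p = 0.00012) and fell from 9.36 at D1 to 7.68 at D3 (1.68, adjusted p = 0.0018). TSKU, a secreted leucine-rich repeat protein, fell from 7.12 at E18 to 5.24 at E20 (1.88, adjusted p = 0.00017) and rose to 7.51 at D1 (-2.27, adjusted p = 8.9e-06), the step in which FGF19 rose.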

How the data were processed

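The deposited values were log2 intensities of 24 Affymetrix Chicken Genome Arrays, 1 for each liver, which the authors made by RMA in affylmGUI with limma 3.30.13; no detection calls or genome build came with them. Groups were taken from the sample titles, since another label field gives the E18 and E20 embryos the stage of E16. Of 38535 probe sets 96 controls were left out, and of the 38439 tested, 27168 had 1 gene symbol, 177 several and 11094 none. A gene was shown by its probe set with the highest mean. limma 3.58.1 (R 4.3.3) fitted 1 mean for each age, E vs. H set the average over E16, E18 and E20 against that over D1, D3 and D9 (equal weights), and p-values were adjusted over all tested probe sets (Benjamini-Hochberg). The fit was tested on simulated data. The number of arrays limits the precision.

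The replicate number was the hybridization day, by the study's methods, so the numbers pair the livers; deviations from age means correlated at 0.07 on the same day (60 pairs) and -0.02 on different days (180 pairs). Alternatives were a replicate block, cyclic loess, array weights, trended robust moderation, a filter on dim probe sets, each array left out, both outlying arrays left out, only the arrays compared, plain groups of 12 and other choices of probe set. Named genes were the members, the 3 most alike to each and, of each list, up to 4 called genes with the largest E vs. H ratio plus receptors, ligands and targets; a few more (among them CFD, CYP7B1, EGR1, IGF1, FST and TSKU) were named after their values were seen. Members and lists were chosen with earlier results of these data known. The study's qRT-PCR values were not used.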

Additional observations from a re-analysis of the deposited data

Results flagged for a closer look

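In 3 of 48 groups of 4 livers, 1 liver lay far from the other 3 (Dixon's test), where chance gives about 1 in 20 groups. FGF19 on E16 replicate 4 was 5.25 against 7.38 on the nearest other E16 liver. EREG on E16 replicate 1 was 5.34 against 4.91 on the nearest, and EREG on E20 replicate 4 was 5.24 against 4.92. Both EREG levels stayed below every fed chick.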

How the results depend on the processing

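All 8 E vs. H ratios kept their direction and their side of the limits under all 262 alternatives, and of 1572 alternatives of the 48 called ratios between ages 1543 kept the call, 29 lost it and 0 reversed. The replicate block, the paired analysis by hybridization day, changed no call of a member: with it ADIPOQ had an E vs. H ratio of 0.88 (adjusted p = 0.00035) and ADIPOR1 an F test adjusted p of 0.19. The calls lost were ADIPOQ in E18 vs. D1 (9 alternatives), the second ADIPOR2 probe set in E18 vs. D1 (7) and E20 vs. D3 (5), FGF19 in E16 vs. E18 (5), and ADIPOR2 in D1 vs. D9 (2) and E20 vs. D9 (1) with the other probe set or the mean of both. The ADIPOR1 range of age means was 0.20 to 0.34 with 1 liver left out, and without E16 replicate 2 its adjusted p was 0.034. Members called in E16 vs. E18 numbered 0 without both outlying arrays and 0 with only the arrays compared, and 0 to 2 with 1 liver left out (2, ADIPOQ and FGF19, without E18 replicate 3). In E18 vs. E20 1 member, ADIPOQ, was called without both outlying arrays, and 0 to 1 with 1 liver left out (E16 replicate 2, E18 replicate 2, E20 replicate 1 or E20 replicate 4). In D3 vs. D9 it was 1 to 2 (ANGPTL4 without D9 replicate 4). The causes were not tested. Low signals, as for FGF23 in embryos, limit ratios.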
